A study of Mus musculus with 9 samples.

Results

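The 3 libraries that carry the number 1 in their titles, 1 each from the CON, LPS and SUR groups, were compared with the 6 libraries numbered 2 and 3. They are 3 of the 9 libraries of the series and were chosen by that number alone, with the treatment group as a covariate. All came from MH-S cells, an immortalised mouse alveolar macrophage line, grown in medium with 10% serum and 0.05 mM mercaptoethanol. CON cells received medium only, LPS cells were given 1 µg/ml LPS (lipopolysaccharide, a bacterial cell wall component) for 4 h, and SUR cells were given 200 µM suramin together with 1 µg/ml LPS for the same 4 h. The sample labels of SUR name only suramin, and the addition of LPS is taken from the treatment protocol. The labels neither say what the number stands for nor name separate cultures for the libraries of a group, and the p-values reflect nothing beyond the scatter among these 9 libraries, which may be technical. The comparison of number 1 with numbers 2 and 3 was set with earlier results of these data known, and its p-values are no independent evidence that number 1 stands apart.

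Macrophage lines grow in culture by passing through DNA replication (S phase) and mitosis (G2 and M phases), and the genes of each phase are switched on together shortly before their products act. Mature macrophages carry surface receptors for bacteria, dead cells and lipids, and a large store of lysosomal enzymes that break down what they take up. LPS binds the receptor TLR4 with CD14 and acts through NF-kappaB and interferon pathways, which turn on cytokine, chemokine and feedback genes within hours.

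Library totals were alike, from 15729402 to 16675250 counts, and 11281 of 14771 genes had enough counts to be tested. General macrophage markers were present in every library: the level of Cd68 was at least 841 CPM (counts relative to the TMM-scaled library total) and that of Csf1r at least 897 CPM. Mertk, another general macrophage marker, was lower, at 10.3 to 16.7 CPM. The alveolar macrophage markers Marco, Siglecf and Pparg stayed under 1 CPM in all 9 libraries. Other alveolar markers were present, with Mrc1 at 70.1 to 191 CPM and Itgax at 7.03 to 13.3 CPM. Of the 42 genes of the alveolar macrophage list 27 had enough counts to be tested. None of 14 epithelial markers, 2 of 15 fibroblast and endothelial markers (Vwf and Kdr), 2 of 15 lymphocyte markers (Lck and Cd4) and 1 of 15 neutrophil and mast cell markers (Mmp9) had enough counts to be tested. The summed level of the fibroblast and endothelial list was 90.7 to 95.4 CPM in number 1 and 217 to 248 CPM in numbers 2 and 3, nearly all of it Vwf, the gene of a clotting protein, while Pecam1 and Cdh5 stayed at or under 0.204 CPM. Summed levels of the epithelial list lay at 0.35 to 1.21 CPM in number 1 and 0.66 to 0.953 CPM in the rest, those of the lymphocyte list at 8.76 to 10.3 and 7.02 to 9.37 CPM, and those of the neutrophil and mast cell list at 2.92 to 5.25 and 3.34 to 6.74 CPM. The part of other cells in the differences below was not tested, and in bulk RNA a smaller share of cells of a kind and less RNA per cell cannot be told apart.

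Number 1 stood apart from numbers 2 and 3 in all 3 groups. Between library 1 and library 2 or 3 of the same group the median absolute difference over the tested genes was 0.182 to 0.21 on the log2 scale, against 0.0849 to 0.108 between libraries 2 and 3. From 490 to 625 genes differed at least 2-fold between library 1 and another library of its group, and 67 to 114 between libraries 2 and 3. With treatment as a covariate, edgeR's quasi-likelihood test (Benjamini-Hochberg adjusted p under 0.05) called 2834 genes higher in number 1 (25.1% of those tested) and 2715 lower (24.1%). Most of these differences were small: 179 called genes were at least 2-fold higher and 276 at least 2-fold lower. The median over all tested genes was 0.01 on the log2 scale. In 3125 genes (27.7%) library 1 lay above libraries 2 and 3 in every group, and in 2914 (25.8%) it lay below both in every group. Medians by chromosome ran from -0.053 to 0.066 over 20 chromosomes, and across genes the difference had a Spearman correlation of 0.0907 with transcript length.

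Among the gene lists, mitotic genes had the largest difference. Of 73 tested genes of the G2 and M phases, 72 were higher in number 1, against the 25.1% of all tested genes, and 0 were lower. Their median difference was 1.29 on the log2 scale, and 53 of them were at least 2-fold higher. The exception was Pttg1, the gene of securin, with 11.3, 12.8 and 11.3 CPM in CON 1, 2 and 3 (log2 difference -0.18, adjusted p = 0.105 in edgeR's quasi-likelihood test). The summed level of the 73 genes was 3320, 1400 and 1430 CPM in CON 1, 2 and 3. It was 3290, 1480 and 1550 CPM in LPS 1, 2 and 3, and 3150, 1380 and 1450 CPM in SUR 1, 2 and 3. Every library numbered 1 lay above all 6 others, with no overlap, and treatment moved the sum far less than the number did.

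The promoters of the 4 mitotic genes with the largest rises among genes averaging 4 or more in log2 CPM are shown, because mitotic genes share known promoter letters. The windows run from 250 bases before to 50 bases after the transcription start (RefSeq, GRCm38.p6) and are written 5′ to 3′ on the gene's strand. They are Ube2c (chr2:164769679-164769978, plus strand), Cenpf (chr1:189688037-189688336, minus strand), Cdc20 (chr4:118437294-118437593, minus strand) and Ccnb1 (chr13:100786437-100786736, minus strand). Capitals mark TTTGAA, the core of the cell cycle homology region (CHR), and CCAAT, the CCAAT box bound by NF-Y, on either strand.
Ube2c: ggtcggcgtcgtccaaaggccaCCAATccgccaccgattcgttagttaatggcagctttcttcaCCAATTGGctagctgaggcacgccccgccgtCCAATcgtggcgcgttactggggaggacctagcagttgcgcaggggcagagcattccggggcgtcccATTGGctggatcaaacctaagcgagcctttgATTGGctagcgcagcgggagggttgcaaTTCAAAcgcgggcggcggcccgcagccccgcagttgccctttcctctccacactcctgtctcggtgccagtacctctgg
Cenpf: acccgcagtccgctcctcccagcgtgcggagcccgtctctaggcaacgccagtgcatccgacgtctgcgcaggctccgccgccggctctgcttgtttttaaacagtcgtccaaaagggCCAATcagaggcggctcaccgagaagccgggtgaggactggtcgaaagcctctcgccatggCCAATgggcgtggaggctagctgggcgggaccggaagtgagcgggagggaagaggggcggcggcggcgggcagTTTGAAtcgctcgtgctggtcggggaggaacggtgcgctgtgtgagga
Cdc20: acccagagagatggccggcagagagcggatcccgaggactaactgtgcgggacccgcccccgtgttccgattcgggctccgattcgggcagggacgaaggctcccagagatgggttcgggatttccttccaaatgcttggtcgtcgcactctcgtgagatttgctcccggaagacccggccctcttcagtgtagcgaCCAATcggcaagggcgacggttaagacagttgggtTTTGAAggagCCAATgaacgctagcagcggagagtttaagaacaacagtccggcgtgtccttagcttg
Ccnb1: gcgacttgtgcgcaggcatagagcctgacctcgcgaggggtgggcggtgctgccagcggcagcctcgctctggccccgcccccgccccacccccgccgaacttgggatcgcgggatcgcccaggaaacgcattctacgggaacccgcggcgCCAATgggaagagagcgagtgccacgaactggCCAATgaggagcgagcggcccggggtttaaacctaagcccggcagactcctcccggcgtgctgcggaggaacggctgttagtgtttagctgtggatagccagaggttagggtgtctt

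The Ube2c window held 1 CHR and 6 CCAAT boxes, the Cenpf and Cdc20 windows 1 CHR and 2 CCAAT boxes each, and the Ccnb1 window 2 CCAAT boxes and 0 of the CHR letters. Over the list, 60 of 73 genes matched the promoter table, with 64 windows. TTTGAA was in 65.6% of these windows, against 12.3% of the 11652 windows of all tested genes and 17.9% of all windows in the table. CCAAT was in 68.8% of them, against 38.4% and 37.4%, and both motifs were in 54.7%, against 5.26% and 6.95%. The letters were not particular to lists that were higher in number 1. The clustered histone list, described below and lower in number 1, had TTTGAA in 42.9% and CCAAT in 85.7% of its 21 windows. The unfolded protein response list had CCAAT in 88.9% of its 18 windows. A match of letters is a description and not a bound site.

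Ube2c, which encodes a ubiquitin-conjugating enzyme of the anaphase-promoting complex, was at 73.8, 18.4 and 15.6 CPM in CON 1, 2 and 3. Its levels were 77.6, 18 and 18.7 CPM in LPS and 80.9, 17.6 and 18.8 CPM in SUR, a log2 difference of 2.12 (SE 0.05, adjusted p = 1.56e-10 in edgeR's quasi-likelihood test). The fitted ratio was 4.34-fold, and library 1 lay far above both other libraries in every group. Cenpf, a kinetochore protein gene, was at 57.6, 12.5 and 14.8 CPM in CON, 51.7, 12.7 and 14 CPM in LPS and 54.2, 14.7 and 16.6 CPM in SUR. Cdc20, the activator of the anaphase-promoting complex, was at 78.9, 21.5 and 23.6 CPM in CON, 86.6, 26.3 and 24.2 CPM in LPS and 74.9, 21.5 and 22.7 CPM in SUR. The high values were again the libraries numbered 1, and numbers 2 and 3 lay close together. Ccnb1, the mitotic cyclin B1, was at 81.8, 25 and 24.8 CPM in CON, 99.7, 28.8 and 25.1 CPM in LPS and 84.6, 25.8 and 25 CPM in SUR (log2 difference 1.78). Its partner kinase Cdk1 was higher by 1.04, the spindle assembly factor Tpx2 by 1.76, the mitotic kinases Plk1 and Nek2 by 1.73 and 1.72, the kinesin Kif20a by 1.69, Ccnb2 by 1.62, the spindle protein gene Spag5 by 1.58, the midzone protein gene Prc1 by 1.56 and the topoisomerase Top2a by 1.36 on the log2 scale. Tenm4, a teneurin of the cell surface, was the only one of the 12 largest rises named by rule that is not known as a mitotic gene (log2 difference 1.64).

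**Figure D1:**
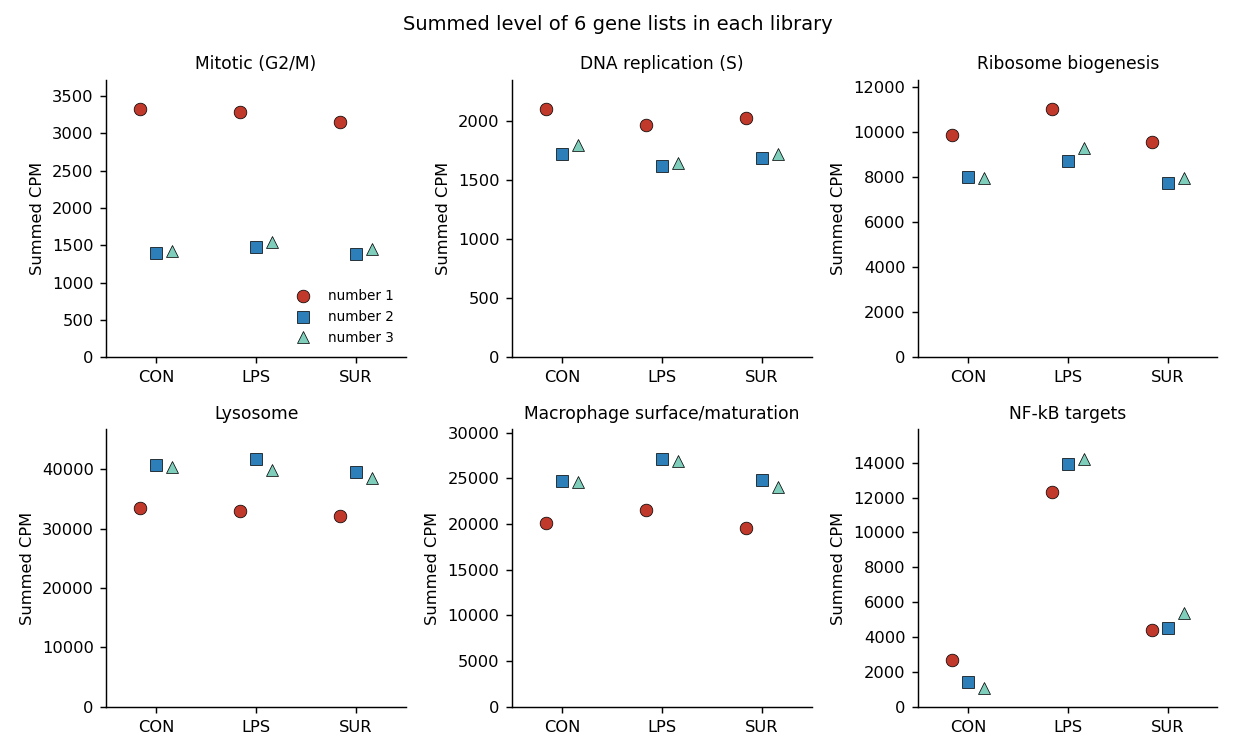
Summed CPM of 6 gene lists in each library (vertical axis from 0) by group, with circles for number 1, squares for number 2 and triangles for number 3. The mitotic list lies at 3150 to 3320 CPM in number 1 and at 1380 to 1550 CPM in the other libraries, while the NF-kappaB list separates number 1 upward in CON (2670 against 1440 and 1060 CPM).

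Genes of DNA replication were also higher, by smaller steps. Of 51 tested genes of the G1/S transition and S phase, 34 were higher and 2 lower, against 25.1% and 24.1% of all tested genes. The list had a median of 0.30 and 0 genes at least 2-fold apart. Mcm5, a subunit of the replicative helicase, was at 66.8, 44.8 and 46.9 CPM in CON, 65.7, 42.6 and 43.9 CPM in LPS and 66.3, 46.1 and 46.6 CPM in SUR (log2 difference 0.55, SE 0.04). Mcm10, which loads the polymerase, was higher by 0.94, and Gins1 was among the other higher genes. Pcna, the sliding clamp, was higher by 0.19. The lower genes were the transcription factor gene E2f2 (log2 difference -0.59) and the clamp loader gene Rfc2 (-0.50). E2f1, Ccne1 and Ccne2 were among the 15 genes that did not pass the threshold.

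Clustered histone genes, whose mRNAs are made in S phase and end in a stem-loop in place of a poly(A) tail, lay in the other direction. This list was added after values had been seen. Of 22 tested genes 0 were higher and 14 lower, against 25.1% and 24.1% of all tested genes. The median was -0.69, and the count of lower genes was 6 without SUR 1. H3c14 was at 2.57, 6.76 and 6.43 CPM in CON, 1.65, 6.81 and 7.13 CPM in LPS and 3.29, 11 and 10.2 CPM in SUR. Copies of these genes are nearly identical, and the assignment of their reads is uncertain.

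Regulators of growth did not move as one group. Of 28 tested genes of the list of MYC, cyclin D and growth factor signalling, 12 were higher and 6 lower (median 0.04). Over all tested genes 25.1% were higher and 24.1% lower. Myc itself, a growth transcription factor, was at 0.35, 0.731 and 0.417 CPM in CON, 2.98, 10.1 and 9.90 CPM in LPS and 0.519, 1.60 and 1.11 CPM in SUR. It was the lowest in number 1 in each group (log2 difference -1.58, SE 0.21, adjusted p = 7.47e-05 in edgeR's quasi-likelihood test), with only the LPS libraries above 2 CPM. Ccnd1, the main D-type cyclin of G1, was at 223, 240 and 276 CPM in CON and did not pass the threshold (log2 difference -0.10, adjusted p = 0.147), while Ccnd3 was lower (-0.44). The ETS factor gene Etv4 was higher by 2.01 at 2.16, 0.426 and 0.417 CPM in CON, and the feedback inhibitor Spry2 by 0.69. Of 26 tested CDK inhibitors, pocket proteins and quiescence genes 9 were higher and 4 lower, the latter count being 2 without LPS 1. The inhibitors Cdkn2c (0.70) and Cdkn1b (0.33) and the pocket protein gene Rbl1 (0.58) were higher, and Cdkn1a, the p21 gene, did not pass the threshold (-0.09, adjusted p = 0.219).

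Most tested genes of ribosome biogenesis and most ATF4 targets were higher in number 1. Of 40 tested genes of ribosome biogenesis 27 were higher and 0 lower (median 0.22), against 25.1% and 24.1% of all tested genes. Ncl, the gene of nucleolin, was higher by 0.44 and Dkc1, a pseudouridine synthase of small nucleolar particles, by 0.52 on the log2 scale. Of 27 tested targets of ATF4, the factor that turns on amino acid synthesis and transport under stress, 21 were higher and 1 lower (median 0.24). Atf4 was at 205, 151 and 134 CPM in CON, 247, 184 and 184 CPM in LPS and 205, 151 and 147 CPM in SUR. Stc2, a secreted glycoprotein gene, was higher by 1.04, the proline synthesis gene Pycr1 by 0.81, the pseudokinase Trib3 by 0.63 and asparagine synthetase Asns by 0.42. The lower gene was the cystine transporter Slc7a11 (-0.79), for which CON libraries overlapped.

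Several genes turned on by low oxygen were higher too. Egln3, a prolyl hydroxylase that marks HIF for destruction and is itself a HIF target, was at 30.3, 3.41 and 5.12 CPM in CON, 23.9, 3.00 and 4.82 CPM in LPS and 17.1, 2.66 and 2.57 CPM in SUR. The difference was 2.72 on the log2 scale (SE 0.12, adjusted p = 9.98e-09 in edgeR's quasi-likelihood test), and each library numbered 1 lay far above all others. Vegfa, the vascular growth factor, was at 183, 82.8 and 75.7 CPM in CON (log2 difference 1.11), and the mitophagy gene Bnip3 was higher by 0.76. Over the 31 tested genes of glycolysis and hypoxia 15 were higher and 4 lower (median 0.07), against 25.1% and 24.1% of all tested genes. The lower ones were Eno2, Aldoc, Hk1 and Pfkm, all glycolytic enzymes.

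**Figure D2:**
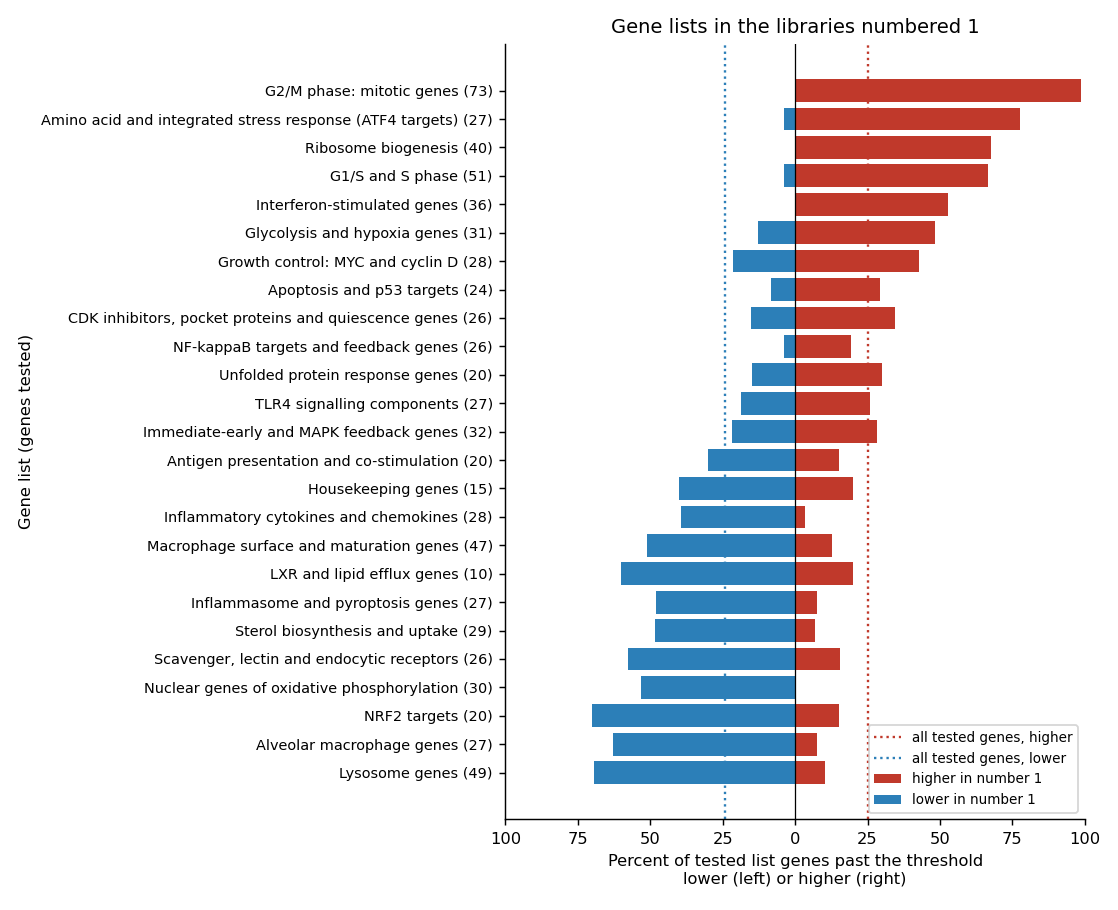
Percent of the tested genes of each list with at least 10 tested genes that were called higher (right) or lower (left) in number 1, with the number tested in parentheses; dotted lines mark 25.1% and 24.1%, the shares over all tested genes. Mitotic, ATF4 target, ribosome and S phase lists reach furthest to the right, and lysosome, NRF2 target and alveolar macrophage lists to the left.

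Lysosome genes gave the largest number of lower genes of any list. Of 49 tested, 34 were lower, against the 24.1% of all tested genes, and 5 higher (1 without SUR 1), with a median of -0.21. Their summed level was 33500, 40800 and 40300 CPM in CON, 33000, 41700 and 39900 CPM in LPS and 32200, 39600 and 38500 CPM in SUR, so each library numbered 1 lay under all others. Ctsk, a cysteine protease that degrades collagen and elastin, had the largest fall named by rule. It was at 11.2, 111 and 109 CPM in CON, 11.5, 114 and 109 CPM in LPS and 9.74, 106 and 113 CPM in SUR. Number 1 held 10.2-fold less (log2 difference -3.35, SE 0.06, adjusted p = 8.95e-12 in edgeR's quasi-likelihood test). Most other differences of the list were smaller: -0.59 for the aspartic protease Ctsd, -0.53 for Ctss, -0.31 for the membrane protein gene Lamp1 and -0.16 for Ctsb, while the tetraspanin Cd63 was lower by 1.04. Tfeb, a transcription factor of lysosome genes, was lower (-0.31) and its relative Mitf higher (0.39). The letters CACGTG, the E-box core bound by these factors, were in 31.1% of the list's 45 promoter windows and in 10.1% of those of all tested genes.

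Of 47 tested genes of macrophage surface and maturation 24 were lower, against the 24.1% of all tested genes, and 6 higher, with a median of -0.14. Lyz2, the macrophage lysozyme, was at 1781, 3683 and 3600.1 CPM in CON (log2 difference -1.05), and Adgre1, the F4/80 antigen, at 394, 510 and 523 CPM in CON, 418, 556 and 543 CPM in LPS and 393, 513 and 516 CPM in SUR (-0.39). The integrins Itgax and Itgam were lower by 0.61 and 0.43, the sialic acid receptor Siglec1 by 0.77 and the transcription factor Maf by 1.21. Other defining genes were not lower. Csf1r, the receptor of the growth factor M-CSF, was at 993, 897 and 919 CPM in CON, 1137, 1176 and 1179 CPM in LPS and 961, 972 and 1040 CPM in SUR (log2 difference 0.01, adjusted p = 0.928), and the lineage factor Spi1 did not pass the threshold (-0.08, adjusted p = 0.197). The higher genes included C1qa, Fcgr1, Lpl, Cd180 and Irf8, C1qa by 0.54 and the Fc receptor Fcgr1 by 0.46. The summed level of the list was 19600 to 21500 CPM in the libraries numbered 1 and 24100 to 27100 CPM in the others, with no overlap. Much of that gap lay in Gpnmb (6469, 8489 and 8570 CPM in CON) and Lyz2, so the sum is no measure of a list-wide fall.

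Of 27 tested alveolar macrophage genes 17 were lower and 2 higher (median -0.26). Of 26 scavenger, lectin and endocytic receptors 15 were lower and 4 higher (median -0.38). Over all tested genes the shares were 24.1% lower and 25.1% higher. The summed alveolar macrophage level was the lowest in number 1 within each group. Over all groups it overlapped, at 5460 to 5880 CPM in number 1 and 5520 to 6380 CPM in the others. Mrc1, the mannose receptor, was at 70.1, 177 and 178 CPM in CON, 71.7, 167 and 178 CPM in LPS and 74.7, 187 and 191 CPM in SUR (log2 difference -1.32, SE 0.04). The lipid carrier gene Fabp5 was lower by 1.09, the chemokine Ccl6 by 1.96 and the fungal receptors Clec7a and Clec4n by 1.28 and 1.33. On the other side lay Cd36, a scavenger receptor for lipids, at 453, 421 and 364 CPM in CON, 514, 417 and 389 CPM in LPS and 541, 441 and 403 CPM in SUR (0.31), and lipoprotein lipase Lpl (0.44). Of 9 tested monocyte and progenitor genes 3 were higher, among them haptoglobin Hp (1.58), and 4 were lower, among them the calcium-binding protein gene S100a4 (-1.09) and the chemokine receptor Ccr2 (-1.08), counts too small to set apart from those shares.

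Other large falls named by rule lay outside the lists or were spread over them. Gsr is on the NRF2 target list and Pirb on the macrophage surface list. Tgfbi, a matrix protein gene induced by TGF-beta, was at 7.30, 41.0 and 46.8 CPM in CON, 7.67, 38.1 and 36.2 CPM in LPS and 9.34, 48.3 and 49.0 CPM in SUR (log2 difference -2.42). Dock5 was lower by 1.94, the tetraspanins Tspan10 and Tspan32 by 1.84 and 1.66, the phospholipase Plcb2 and the secreted Angptl2 by 1.69 each, and Opcml by 1.67. Pira2 was lower by 1.81 and Pirb by 1.29, and reads of these near-identical receptors may have been split by the counting. The glutathione reductase Gsr was lower by 1.66.

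**Figure D3:**
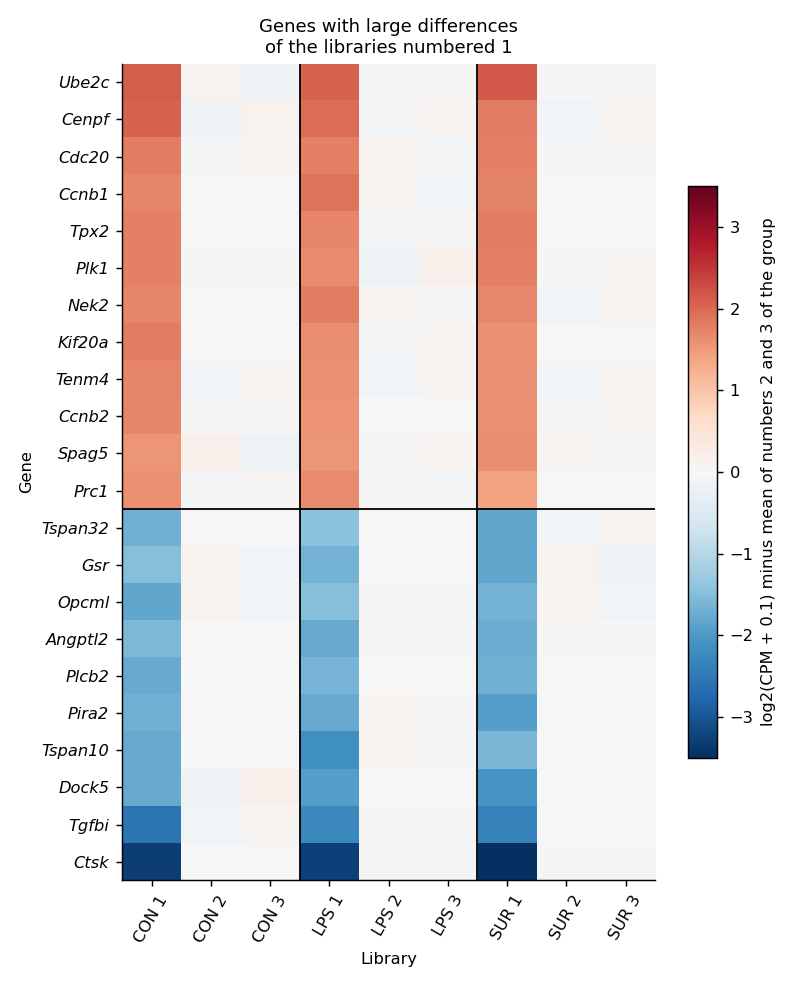
The 12 largest rises (top) and 10 of the 12 largest falls (bottom) named by rule, drawn as log2(CPM + 0.1) in each library minus the mean of numbers 2 and 3 of the same group. The 3 columns of number 1 are red above and blue below in every group, and the columns of numbers 2 and 3 are close to 0.

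The NRF2, oxidative phosphorylation, sterol and LXR lists had more lower than higher genes. Over all tested genes 24.1% were lower and 25.1% higher. Of 20 tested targets of NRF2, the factor of the antioxidant response, 14 were lower and 3 higher (median -0.20). Gstm1, a glutathione transferase, was at 43.8, 123 and 125 CPM in CON (log2 difference -1.56), and Hmox1, heme oxygenase, was higher by 0.20. Of 30 tested nuclear genes of oxidative phosphorylation 16 were lower and 0 higher (median -0.14), the largest difference being -0.32 for Sdhd. Of 29 tested sterol genes 14 were lower and 2 higher, and of 10 tested LXR and lipid efflux genes 6 were lower and 2 higher. Housekeeping genes gave 3 higher and 6 lower of 15 tested, with Actb, cytoplasmic actin, lower by 0.45. The unfolded protein response list gave 6 higher and 3 lower of 20 tested, and the apoptosis and p53 list 7 higher and 2 lower of 24. Their counts of higher genes lay near the share over all genes, and their counts of lower genes lay under it. The count of lower unfolded protein response genes was 1 without SUR 1 and 8 without CON 2, and the count of higher apoptosis and p53 genes was 4 without CON 1.

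The difference had much the same genes in each treatment. Within CON alone 2690 genes were called (23.8% of those tested, 12.9% higher and 10.9% lower), within LPS 2682 (23.8%, 11.4% higher and 12.3% lower) and within SUR 2455 (21.8%, 10.4% higher and 11.4% lower). Each of these is 1 library against 2, with the spread pooled over groups and the lone library assumed to vary like the others. Of the genes called in CON, 95.4% had the same sign in LPS and 96.7% in SUR, against 78.3% and 79.1% of all tested genes. Those called again with the same sign were 1801 in LPS and 1798 in SUR. Those called with the opposite sign were 24 and 8. Across genes, which are not independent replicates, the Pearson correlation of the number 1 difference was 0.666 between CON and LPS, 0.65 between CON and SUR and 0.746 between LPS and SUR. In all 3 groups at once 769 genes were called higher and 788 lower. Mitotic genes had medians of 1.24, 1.31 and 1.19 in CON, LPS and SUR, with 69, 71 and 71 of 73 called higher. Lysosome genes gave 19, 26 and 20 called lower of 49, and macrophage surface genes 20, 22 and 19 called lower of 47.

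**Figure D4:**
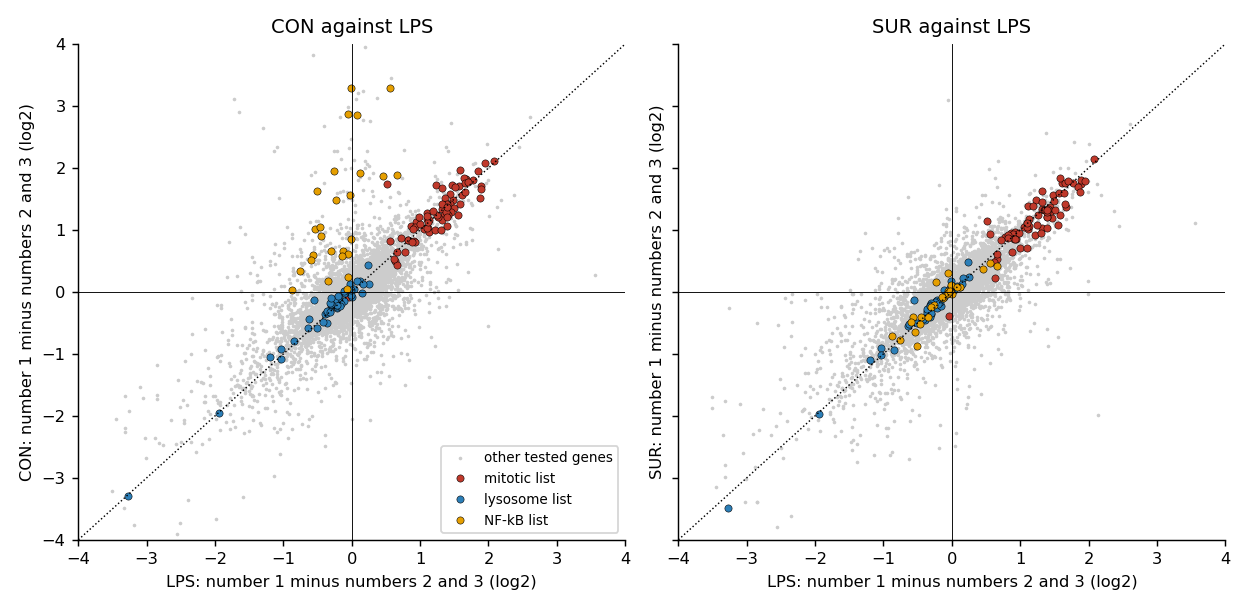
Difference of number 1 from numbers 2 and 3 on the log2 scale for each tested gene, CON against LPS (left) and SUR against LPS (right), with the mitotic, lysosome and NF-kappaB lists coloured and a dotted line of equality (16 genes fall outside each panel). Mitotic and lysosome genes follow the line in both panels, and NF-kappaB genes lie mostly above it in CON against LPS.

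A small set of genes of the LPS response departed from this pattern, 80 in all. The interaction of LPS with number 1 was negative for 78 genes (0.691% of those tested) and positive for 2 (0.0177%). It was the interaction term of edgeR's quasi-likelihood test after Benjamini-Hochberg adjustment. A negative value means a smaller ratio of LPS to CON in number 1, which a higher level in CON 1 alone can give. Differences in CPM were not tested. Together the 80 genes were 0.709% of the tested genes. At an unadjusted p under 0.05 in that test there were 645 of 11281 genes, and a share of 0.05 would fall there with no interaction at all. With the number as a block, which the labels' shared numbers allow, the counts were 171 and 8. On the authors' FPKM values with limma (pseudocount 0.1 or 1) only 1 gene, Il1a, passed with a negative interaction and 0 with a positive one. All 78 kept a negative sign and an unadjusted p under 0.05 in limma. They were chosen in these same libraries, so this is no independent evidence. Fits without CON 2 or CON 3 lose the gap between these libraries from their spread, and the higher counts found so are no added support.

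In all 78 genes LPS libraries lay above CON libraries in numbers 2 and 3, and in 77 also in number 1. The median log2 difference between LPS and CON over the 78 genes was 1.99 in number 1, 3.01 in number 2 and 3.48 in number 3. The gap arose mostly at the CON end. CON 1 was above CON 2 and CON 3 in 75 of the 78 genes, against 43.1% of all tested genes, and 70 were called higher in CON 1. The 78 genes were chosen by the interaction in these same libraries. A smaller median in number 1, and a high CON 1 or a low LPS 1, follow in part from that choice. LPS 1 was below both other LPS libraries in 49 (28 called lower) and above both in 20 (7 called higher). The median difference of number 1 from the rest was 1.04 in CON, -0.14 in LPS and -0.02 in SUR. CON 2 was also above CON 3 in 67 of the 78 genes, against 50.9% of all tested genes, so the CON libraries formed a series in which number 1 was the highest and number 3 the lowest in 65. Over all tested genes 363, 449 and 468 genes were at least 2-fold higher in LPS than in CON in numbers 1, 2 and 3, and 40, 98 and 116 at least 8-fold higher. Those at least 2-fold lower numbered 251, 369 and 361, so number 1 had the fewest genes in each of these counts.

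NF-kappaB targets and feedback genes held the largest share of these genes. Of 26 tested, 18 had a negative interaction and 0 a positive one, against 0.691% and 0.0177% of all tested genes. Within CON 21 of the 26 were called higher in number 1 and 0 lower, within LPS 1 higher and 9 lower, and within SUR 2 higher and 7 lower. Over all tested genes the shares called higher and lower were 12.9% and 10.9% within CON, 11.4% and 12.3% within LPS, and 10.4% and 11.4% within SUR. The letters of the kappaB motif were in 46.7% of the list's 30 promoter windows and in 5.14% of those of all tested genes. They were in 17.1% of the 82 windows of the 78 genes. Of 28 tested cytokines and chemokines 4 had a smaller LPS difference in number 1 (Il1a, Il23a, Ccl5 and Cxcl3), and 13 were called higher in CON 1 and 2 lower. Immediate-early and MAPK feedback genes gave 6 of 32, interferon-stimulated genes 4 of 36, TLR4 signalling components 3 of 27 and the inflammasome list 2 of 27. With the number as a block these counts were 14 for cytokines, 16 for immediate-early genes and 6 for interferon-stimulated genes.

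Acod1, which makes the antibacterial metabolite itaconate, was at 33.9, 5.84 and 1.13 CPM in CON 1, 2 and 3 and at 409, 408 and 412 CPM in LPS 1, 2 and 3. The LPS libraries did not differ by number, whereas CON ran over a wide range from 1 to 3, and the LPS difference was smaller by 3.29 on the log2 scale in number 1 (SE 0.48, adjusted p = 0.0121 in edgeR's quasi-likelihood test). Ptgs2, the inducible cyclooxygenase, was at 41.1, 6.51 and 1.96 CPM in CON and 523, 320 and 389 CPM in LPS, so number 1 was the highest in both groups (interaction -2.72, adjusted p = 0.0187, same test). Ifit1, an interferon-induced antiviral gene, was at 15.5, 3.47 and 1.13 CPM in CON and 153, 134 and 121 CPM in LPS (interaction -2.49). Nlrp3, the inflammasome sensor, was at 143, 62.9 and 39.1 CPM in CON and 848, 995 and 988 CPM in LPS (interaction -1.71, SE 0.25). Cd14, the LPS co-receptor, was at 157, 79.9 and 72.3 CPM in CON and 760, 790 and 824 CPM in LPS (interaction -1.13). In these 3 genes, too, the widest spread on the log2 scale lay among the CON libraries. In CPM, the rise from CON to LPS was the largest in number 1 for Ptgs2 and Ifit1. It was the smallest in number 1 for Acod1, Nlrp3 and Cd14.

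Il1a, the gene of the alarm cytokine interleukin-1 alpha, differed at both ends. It was at 1.40, 0.183 and 0.179 CPM in CON and at 24.7, 78.6 and 76.5 CPM in LPS, and CON 2 and 3 rest on few counts. Number 1 was the highest in CON and the lowest in LPS, and the interaction was -4.56 (SE 0.55, adjusted p = 0.0114 in edgeR's quasi-likelihood test). In SUR it was at 1.96, 4.55 and 6.2 CPM, again lowest in number 1. Il23a, a subunit of interleukin-23, had the same shape, with 1.40, 0.243 and 0.298 CPM in CON and 17, 32.8 and 39.4 CPM in LPS. Other named genes with a smaller LPS difference in number 1 were the chemokine Cxcl3 (-3.76, with CON 3 at 0), the chemokine-binding receptor Ccrl2 (-2.91), the co-stimulatory ligand Tnfsf9 (-2.16), the phosphodiesterase Pde4b (-2.10) and the phosphatase Dusp1 (-1.80). DESeq2 did not call the interaction of Acod1, Cxcl3, Ccrl2, Ptgs2, Tnfsf9 and Dusp1 (adjusted p = 1 each), Ifit1 (0.786), Pde4b (0.578) or Nlrp3 (0.0717), while it called those of Il1a, Il23a and Cd14. In edgeR's test Tnfsf9 was also not called without SUR 1 (adjusted p = 0.0507).

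**Figure D5:**
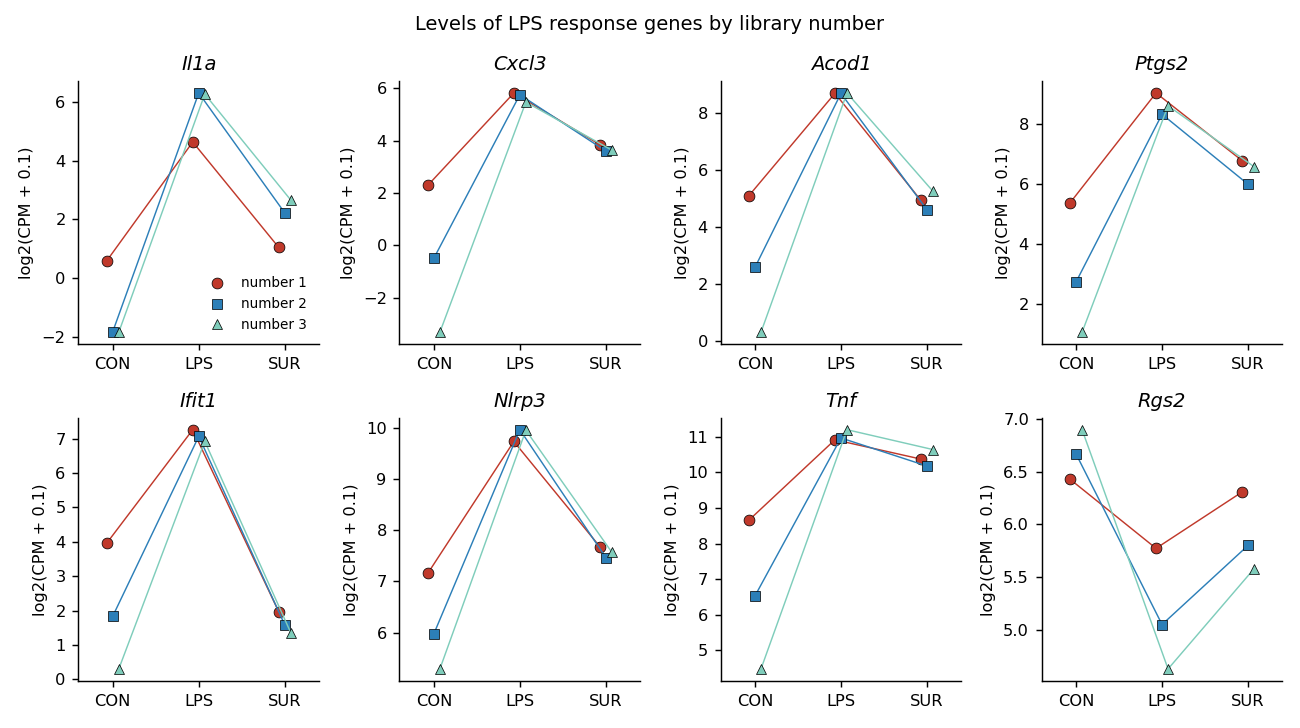
Levels of 8 LPS response genes as log2(CPM + 0.1) in CON, LPS and SUR, with 1 line for each library number. For Acod1, Ptgs2, Ifit1, Nlrp3 and Tnf the lines spread in CON and come close together in LPS, Il1a of number 1 lies lowest in LPS, and Rgs2 of number 1 lies highest in LPS.

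For the classical cytokine genes the difference was as large but did not pass the threshold. Tnf was at 404, 92.1 and 22.1 CPM in CON and 1932, 2002 and 2352 CPM in LPS, with an interaction of -2.99 (SE 0.68, adjusted p = 0.105 in edgeR's quasi-likelihood test). CON 1, 2 and 3 were each several fold apart, and numbers 2 and 3 differed from each other as well. Il1b was at 4.55, 1.40 and 0.0595 CPM in CON and 98.3, 223 and 262 CPM in LPS (interaction -3.95, adjusted p = 0.066). Il6 was at 17.2, 3.77 and 0.179 CPM in CON and 251, 182 and 207 CPM in LPS (-2.77, adjusted p = 0.0895). The NF-kappaB inhibitor gene Nfkbia was at 240.3, 94.6 and 29.2 CPM in CON and 627, 694 and 812 CPM in LPS (-2.22, adjusted p = 0.181). With the number as a block, adjusted p in the same test was 0.0177 for Tnf, 0.00649 for Il1b, 0.0119 for Il6 and 0.0334 for Nfkbia. The interferon-induced chemokine Cxcl10, at 124, 26.4 and 0.536 CPM in CON and 1410.2, 1363 and 1288 CPM in LPS, did not pass in either fit (-3.12, adjusted p = 0.383, and 0.0862 with the block). The interaction of Cxcl10 was -7.75 without CON 2 and -2.1 without CON 3, so its size depended on which of them was kept. Such fits leave 1 library beside CON 1, and the gap between CON 2 and CON 3 no longer enters their spread. Their p-values are therefore no added support and are not given. With all libraries DESeq2 gave an adjusted p of 1 for each of these 5 genes.

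Mitotic and LPS response genes met in Mki67, the proliferation antigen Ki-67, the only one of the 73 mitotic genes with a called interaction. It was at 229, 66.8 and 69.9 CPM in CON, 305, 196 and 230.2 CPM in LPS and 199, 82.6 and 98.7 CPM in SUR. Its level was higher in LPS than in CON by 1.55 and 1.72 on the log2 scale in numbers 2 and 3 and by 0.41 in number 1 (interaction -1.23, SE 0.16, adjusted p = 0.0118 in edgeR's quasi-likelihood test). Number 1 was still the highest in every group. The 2 genes with the opposite interaction were lower in LPS than in CON. Rgs2, a regulator of G-protein signalling, was at 86.1, 102 and 119 CPM in CON and 54.6, 33.0 and 24.6 CPM in LPS (interaction 1.28), and Lratd2 was at 31.8, 38.1 and 38.4 CPM in CON and 21.2, 13.2 and 14.1 CPM in LPS (0.90). For both genes the difference between LPS and CON was smallest in number 1.

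Interferon-stimulated genes were higher in number 1 in more than the CON group. With treatment as a covariate 19 of 36 tested were higher and 0 lower (median 0.33). Within CON 18 were higher, within LPS 14 and within SUR 7. Over all tested genes 12.9%, 11.4% and 10.4% were higher within CON, LPS and SUR, and the SUR count lay nearest its share. Rsad2, the antiviral viperin gene, was at 13.4, 3.65 and 1.85 CPM in CON, 115, 72.4 and 63.4 CPM in LPS and 6.23, 3.73 and 3.86 CPM in SUR. Cytokines and chemokines gave 1 higher and 11 lower of 28 with treatment as a covariate. In LPS alone 0 were higher and 9 lower, against 11.4% and 12.3% of all tested genes. Without LPS 1 the count of lower cytokine genes was 2, and without CON 1 the count of lower genes was 10 for NF-kappaB, 9 for TLR4 signalling and 10 for immediate-early genes. For Il1a (log2 difference -1.44) and Il1b (-0.94) that value averages a higher level in CON 1 with lower levels in LPS 1 and SUR 1. The inflammasome list had 2 higher and 13 lower of 27, the TLR4 list 7 higher and 5 lower of 27 with Tlr4 itself lower by 0.27, NF-kappaB targets 5 higher and 1 lower of 26, immediate-early genes 9 higher and 7 lower of 32, and antigen presentation genes 3 higher and 6 lower of 20. Over all tested genes 25.1% were higher and 24.1% lower, and the TLR4 and immediate-early counts lay near those shares. The count of higher genes was 4 for TLR4 signalling without CON 1, and for NF-kappaB targets it was 2 without CON 1 and 8 without LPS 1. It was 1 for antigen presentation and 1 for the inflammasome list without CON 1.

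The effect of suramin on the LPS response was not found to depend on the number. For the difference between SUR and LPS, 0 genes had a called interaction with number 1 (0% of 11281) in edgeR's quasi-likelihood test, with 244 at an unadjusted p under 0.05. DESeq2 and limma-voom called 1 gene each, the predicted Gm2007, and the fit with the number as a block called 2, Gm2007 and Mki67. In the joint test 49 genes (0.434%) had a number 1 difference that varied between CON, LPS and SUR, and 161 with the block.

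The number also set how many genes passed in the comparison of LPS with CON over all libraries. With the group alone 2069 genes were called (18.3%, with 8.98% higher and 9.36% lower in LPS) by edgeR's quasi-likelihood test. Adding a term for number 1 gave 4217 called genes, all 2069 of the first among them, and adding the number as a block gave 4714. Without CON 3 the fit with the group alone called 1379 genes.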

How the data were processed

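RNA was measured in 9 libraries of MH-S cells, 3 per group. The deposited table gives, per the file headers, expected counts, FPKM and TPM per gene for each library. The authors' expected counts were not all whole (93.4% were) and were rounded here. The authors' FPKM values were used only as an alternative, and their TPM values only to check the table. Reads were aligned with HISAT2 2.0.4 to GRCm38 (mm10), per the submitters' processing notes. Neither the counting tool nor its annotation was given in the sources used here. Libraries were made with the MGIEasy kit from 1.3 µg total RNA, per the labels' protocols.

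Genes were kept by edgeR's filterByExpr within treatment groups (minimum count 10), which left 11281 tested and 3490 not tested, and scaled by TMM (factors 0.934 to 1.04). Tests used edgeR 4.0.16 (R 4.3.3), quasi-likelihood F test, with Benjamini-Hochberg adjustment over all tested genes and a threshold of 0.05. Number 1 was tested with treatment as a covariate (5 residual degrees of freedom). Interactions and within-group differences came from 6 means, treatment by number 1 or the rest, whose spread comes only from numbers 2 and 3 (3 residual degrees of freedom). Standard errors were derived from the F statistic. Differences within 1 number used log2 CPM with a prior count of 2. The fits were tested on simulated data. DESeq2 1.42.0 and limma 3.58.1 served as alternatives, and matplotlib drew the figures.

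Deviations from group means correlated between groups for the same number (0.701 to 0.801 for number 1, 0.495 to 0.557 for number 2, 0.435 to 0.586 for number 3). Beyond number 1 against the rest, the main tests did not pair libraries by number. The numbers served as pairs only in the differences within 1 number and in the alternative fits with the block. The 3 deviations of a group sum to 0, so the values for numbers 2 and 3 follow in part from number 1. The difference of number 2 minus number 3, which number 1 does not enter, correlated by 0.105 to 0.197 between groups. No label states a pairing.

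The members, the 30 gene lists (1 more was added later) and the rule for named genes were chosen with earlier results of these data known. The rule names a fixed set of genes, the 12 largest rises and 12 largest falls among called genes averaging 4 or more in log2 CPM whose library numbered 1 lies beyond both others in all 3 groups, the 8 strongest interactions per direction, and up to 4 called members per list and test. Genes outside it (such as Pttg1, Rfc2, E2f2, Ctsd, Lyz2, Spi1 and Tlr4) are list members chosen after their values were seen. Some genes that the rule names are not reported here.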

Additional observations from a re-analysis of the deposited data

Results flagged for a closer look

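The effect of LPS differed by library number in a direct test of the difference (the interaction term of edgeR's quasi-likelihood test). The interaction was negative for 78 genes, whose rise with LPS was smaller in number 1 on the log2 scale. It was positive for 2, whose fall with LPS was smaller in number 1 on that scale. Those named were Il1a (-4.56), Cxcl3 (-3.76), Acod1 (-3.29), Ccrl2 (-2.91), Ptgs2 (-2.72), Ifit1 (-2.49), Tnfsf9 (-2.16) and Pde4b (-2.10) on the log2 scale, and on the other side Rgs2 (1.28) and Lratd2 (0.90). In the joint test over the 3 groups, 49 genes had a number 1 difference that varied between CON, LPS and SUR. With DESeq2, of these 10 genes Il1a and Rgs2 were called. Each interaction rests on 1 library numbered 1 per group.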

How the results depend on the processing

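The counts of genes higher and lower in number 1 stayed within 1.5 times of 2834 and 2715 under every alternative run, and from 2121 to 2858 and 2156 to 2772 when single libraries were left out. For the negative LPS interaction (78 genes) the count was 50 with DESeq2, 48 without the filter on low counts, 1 on log2(FPKM + 0.1) and 1 on log2(FPKM + 1) with limma, 171 with the replicate block, and 70 to 154 with single libraries left out. For the positive LPS interaction (2 genes) it was 1 with DESeq2, 4 with limma-voom, 0 on both FPKM scales, 8 with the block, and 2 to 5 with single libraries left out. The joint test (49 genes) gave 16 without the filter, 1 and 0 on the FPKM scales, 161 with the block, and 45 to 132 with single libraries left out. The interaction of SUR against LPS (0 genes) gave 1 with DESeq2, 1 with limma-voom, 2 with the block, and 0 to 1 with single libraries left out. Within CON, LPS and SUR, DESeq2 called 1430, 1448 and 1354 genes, and leaving out single libraries gave 2248 to 2684, 1851 to 3179 and 1386 to 2953. LPS against CON gave 4217 genes with a term for number 1, 4714 with the block and 1379 to 2075 with single libraries left out. The difference of number 1 changed sign for Dusp1 (-0.17) and Nfkbia (-0.24) without the CON group, for Il1a (0.10) and Il1b (0.37) with DESeq2, and for Il1b on log2(FPKM + 0.1) (0.38). For the FPKM and DESeq2 differences the cause was not tested. The block changed no other count's side and, of the single genes, the calls of Tnf, Il1b, Il6 and Nfkbia given above.

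Interactions cannot be fitted without CON 1 or LPS 1. All 3 libraries numbered 1 carry the same number, so anything they share beyond the number cannot be told apart from it. Genes under about 1 CPM, such as Il1a in CON, rest on few counts.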
